A study of Equus caballus with 4 samples.

Results

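The genes examined were the catalytic subunits of the immunoproteasome (PSMB8, PSMB9 and PSMB10), the constitutive subunits that they replace (PSMB5, PSMB6 and PSMB7) and the proteasome activators PSME1, PSME2, PSME3 and PSME4. Members were the non-control probes whose gene name in the scanner files was 1 of these symbols, which gave 10 genes of 13746 and 19 probes of 43603. Of these probes, 7 read inducible subunits, 3 read constitutive subunits and 9 read activators.

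RNA was measured in equine satellite cells, the muscle stem cells, which had been isolated from m. semitendinosus of 6-month-old stallions and had differentiated until day 3. In the HMB-treated group, cells received 50 µM HMB (β-hydroxy-β-methylbutyrate, a metabolite of leucine) for 24 h, with 3 mM H2O2 present during the last 1 h. The control received the same H2O2 exposure without HMB. Thus both groups were exposed to H2O2, and the comparison asks what HMB changed in cells under oxidative stress. On each of 4 arrays, HMB-treated RNA labeled with Cy5 and control RNA labeled with Cy3 were hybridized together, and each array gave 1 log2 ratio (HMB-treated over control) per probe.

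The dyes were not swapped, so dye and treatment cannot be told apart, and all 4 arrays lay on 1 slide. The labels number the control as replicate 1 on every array, and a single culture was selected for further work according to the methods, so the 4 arrays need not stand for 4 horses. The p-values therefore measure the spread between these arrays, which may be technical in part. The share of spots well above background was 57.6 to 60.6% for Cy3 and 55.2 to 61.8% for Cy5. The number of arrays limits the precision. All 19 member probes were well above background in both channels on all 4 arrays.

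The proteasome is the main protease of the cytosol and nucleus. Its 20S core is a barrel of alpha and beta rings in which beta subunits carry the catalytic sites. Interferon-gamma and other inflammatory signals induce PSMB8, PSMB9 and PSMB10, which are built into new particles in place of PSMB5, PSMB6 and PSMB7, respectively, and change the peptides that are made for presentation on MHC class I. The ends of the core are opened by regulators: the 19S particle, which takes ubiquitinated proteins, the PA28 alpha and beta ring of PSME1 and PSME2, the nuclear PA28 gamma ring of PSME3, and PA200, the product of PSME4. In muscle, the ubiquitin-proteasome system breaks down contractile proteins.

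The probes are shown because each value below rests on 60 bases of 1 transcript, and the inducible and constitutive subunits are related proteins whose reads have to be kept apart. The sequences are the deposited probe sequences, given 5′ to 3′ in lower case, and capitals mark bases that all probes of the same gene share. Coordinates are those of the EquCab1 build named in the files. For PSMB9, PSMB6 and PSME1, only the first 30 bases are given.
PSMB8 (chr20:26852202-26852418, minus strand): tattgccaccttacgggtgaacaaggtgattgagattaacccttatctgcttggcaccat
PSMB5 (chrUn:181516299-181517072, plus strand): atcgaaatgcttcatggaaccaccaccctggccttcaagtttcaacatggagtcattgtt
PSMB9, leftmost of 5 probes (chr20:26867606-26867665, plus strand), first 30 bases: aatgAGCTGCCGAAATTCTATGATGAGTGA
PSMB6 (chr11:48499932-48499991, minus strand), first 30 bases: ttgggagaccagatccccaaattcaccatt
PSMB10 (chr3:18195257-18195443, minus strand): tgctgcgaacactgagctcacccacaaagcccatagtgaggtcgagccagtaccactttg
PSMB7 (chr25:10283174-10283233, plus strand): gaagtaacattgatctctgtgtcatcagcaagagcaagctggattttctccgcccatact
PSME1 (chrUn:180682855-180682914, minus strand), first 30 bases: aactttgagaagctcaagaagcccagggga
PSME2, leftmost of 5 probes (chrUn:180679369-180679428, plus strand): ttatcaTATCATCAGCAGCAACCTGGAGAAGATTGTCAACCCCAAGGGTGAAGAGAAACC
PSME4 (chr15:42853537-42853596, plus strand): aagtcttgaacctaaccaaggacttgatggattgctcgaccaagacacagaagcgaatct

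The 5 probes of PSMB9 share 56 bases and the 5 probes of PSME2 share 54 bases, so neither set gives 5 independent readings. The genomic span of the 60-base probes for PSMB8, PSMB10 and PSMB5 is 217, 187 and 774 bases, respectively, so these probes match sequence that is not contiguous in the genome. No exon is given for them in the files. The longest run of bases shared by probes of 2 different members was 9 bases (PSMB7 and PSME2), and 0 of the 19 member probes shared a word of 25 bases with any probe of another gene. These comparisons set probes against probes, which lie at different positions of their transcripts. They cannot show whether a probe also binds RNA of a related member, which was not tested.

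All 3 inducible catalytic subunits were expressed at a higher level in the HMB-treated group, none of the 3 constitutive subunits passed the thresholds, and the activators were divided. At an unadjusted limma p under 0.05, all 3 constitutive subunits were lower, but their FC was under 1.3 and the methods' t-test called 0. PSME1 and PSME2 were higher, PSME4 was lower and PSME3 did not pass. A gene was called when limma's adjusted p was at most 0.05 and the FC was at least 1.3. By this rule 6 of the 10 members were called, 5 of them higher and 1 lower. Among the 24669 tested probes, 28.6% were called, 12.1% higher and 16.4% lower, and their median log2 ratio was −0.07. Counts at an unadjusted p, here and below, stand without the share of all tested probes that pass that cut. They therefore cannot be compared with the probes at large. As an alternative scaling, each array was centred on the spike-in RNA that had been added to both labeled samples. Values on that scale are named as such. With spike-in centring 81.8% of all tested probes were called, and only 4.94% of these were higher. For genes with several probes, the values given below are those of the brightest probe.

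**Figure D1:**
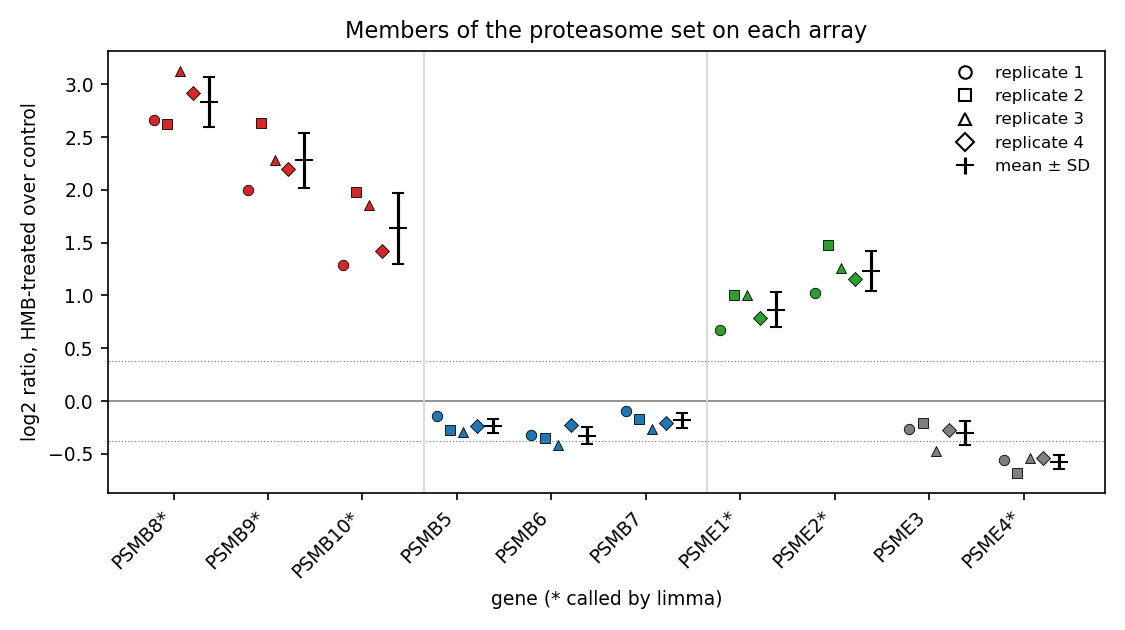
Log2 ratio (HMB-treated over control) of each member on each of the 4 arrays, with the mean ± SD over the arrays beside the points; dotted lines mark an FC of 1.3 in either direction and asterisks mark called genes. The 3 inducible subunits lie between 1.29 and 3.13, whereas the 3 constitutive subunits lie between −0.42 and −0.09; with ratios centred on spike-in RNA, all ratios are lower and PSME1 is not called.

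PSMB8 encodes the inducible subunit β5i, which has chymotrypsin-like activity. Its processed signal in the control channel was 70.0, 93.5, 79.4 and 54.2 in replicates 1 to 4, and in the HMB channel it was 443, 577, 694 and 409.9. The lowest HMB signal exceeded the highest control signal. On the 4 arrays the log2 ratio was 2.66, 2.62, 3.13 and 2.92, highest in replicate 3. The mean was 2.83 ± 0.24 (SD, n = 4), or an FC of 7.13 (limma adjusted p = 7.46e-06). PSMB8 ranked 80 of 8469 tested gene symbols by log2 ratio. Its probe was dim, and with another background correction (normexp followed by loess) its log2 ratio was 1.60, still called.

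PSMB9 encodes the inducible subunit β1i. Its processed signal was 1519, 1511, 1911 and 1469 in the control channel and 6087, 9360.1, 9296 and 6752 in the HMB channel, without overlap. Log2 ratios were 2.00, 2.63, 2.28 and 2.20, highest in replicate 2. The mean of 2.28 ± 0.26 (SD, n = 4) corresponded to an FC of 4.85 (limma adjusted p = 2.64e-05). All 5 overlapping probes were called, and their means ranged from 2.27 to 2.28.

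PSMB10 encodes the inducible subunit β2i. Its processed signal was 1504, 1669, 1945 and 1406 in the control channel and 3671, 6602, 7042 and 3761 in the HMB channel, again without overlap. PSMB10 had log2 ratios of 1.29, 1.98, 1.86 and 1.42, so replicates 2 and 3 lay above replicates 1 and 4. The mean was 1.64 ± 0.34 (SD, n = 4), or an FC of 3.11 (limma adjusted p = 0.000219). The spread between arrays was the widest of the 10 members. PSMB9 and PSMB10 ranked 110 and 154 of the 8469 symbols.

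The ratios of the constitutive subunits were nearer to 0. PSMB5 encodes β5, with chymotrypsin-like activity. Its processed signal was 2956, 2778, 3673 and 2783 in the control channel and 2680.1, 2291, 2989 and 2367 in the HMB channel, and these ranges overlapped. Log2 ratios were −0.14, −0.28, −0.30 and −0.23, with a mean of −0.24 ± 0.07 (SD, n = 4) and an FC of 1.18 (limma adjusted p = 0.0215). PSMB5 was below 0 on all 4 arrays but did not reach the FC threshold.

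PSMB6 encodes β1, with caspase-like activity. The log2 ratio was −0.32, −0.35, −0.42 and −0.23, with a mean of −0.33 ± 0.08 (SD, n = 4) and an FC of 1.26 (limma adjusted p = 0.00728). The signal in the control channel ranged from 16593 to 23586 and in the HMB channel from 14179 to 17656, with overlap. PSMB6 was not called, but with normexp and loess its log2 ratio was −0.39 and it was called lower.

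PSMB7 encodes β2, with trypsin-like activity. Its log2 ratio was −0.09, −0.17, −0.26 and −0.20, with a mean of −0.18 ± 0.07 (SD, n = 4) and a limma adjusted p of 0.0519. The signal ranged from 11322 to 14588 in the control channel and from 9987 to 12162 in the HMB channel, with overlap. PSMB7 failed both thresholds. Centred on the spike-in RNA, PSMB5, PSMB6 and PSMB7 had log2 ratios of −0.78, −0.81 and −0.73 and were called lower, while the median of all tested probes moved to −0.67 on that scale.

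**Figure D2:**
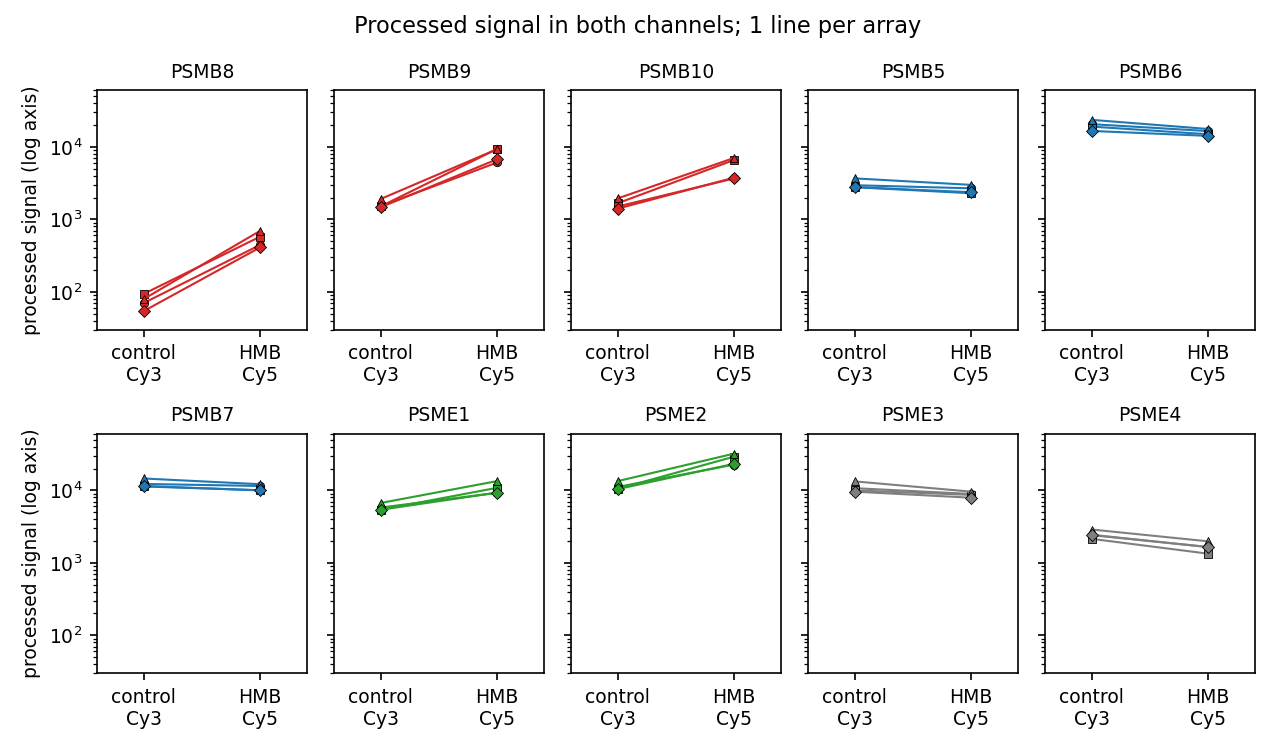
Processed signal of each member in the control channel (Cy3) and the HMB channel (Cy5) on a log axis, with 1 line for each of the 4 arrays. The signals of PSMB8, PSMB9, PSMB10, PSME1 and PSME2 are higher in the HMB channel on every array without overlap, and those of PSMB5, PSMB6, PSMB7 and PSME3 are slightly lower with overlapping ranges; levels of different genes cannot be compared, since probes differ in brightness.

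Each inducible subunit was compared with the subunit it replaces on the same array, which cancels any scaling that shifts all ratios of an array equally. PSMB8 minus PSMB5 was 2.80, 2.90, 3.42 and 3.15 on the log2 scale, with a mean difference of 3.07 ± 0.28 (SD, n = 4). PSMB9 minus PSMB6 was 2.32, 2.98, 2.70 and 2.43, with a mean difference of 2.61 ± 0.30 (SD, n = 4). PSMB10 minus PSMB7 was 1.38, 2.15, 2.12 and 1.62, with a mean difference of 1.82 ± 0.38 (SD, n = 4). The log2 ratio of each inducible subunit was thus above that of its constitutive counterpart on 4 of 4 arrays. These differences compare changes with HMB and not the levels of the subunits. The mean of the 3 pairs was 2.17, 2.68, 2.75 and 2.40, or 2.50 ± 0.27 (SD, n = 4). The exact sign-flip test gave p = 0.125 (two-sided), which is the smallest p that 4 arrays allow, and 0.125 after the Benjamini-Hochberg correction over the 7 differences examined. With normexp and loess, the mean of the 3 pairs was 2.05, and PSMB8 minus PSMB5 was 1.78.

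**Figure D3:**
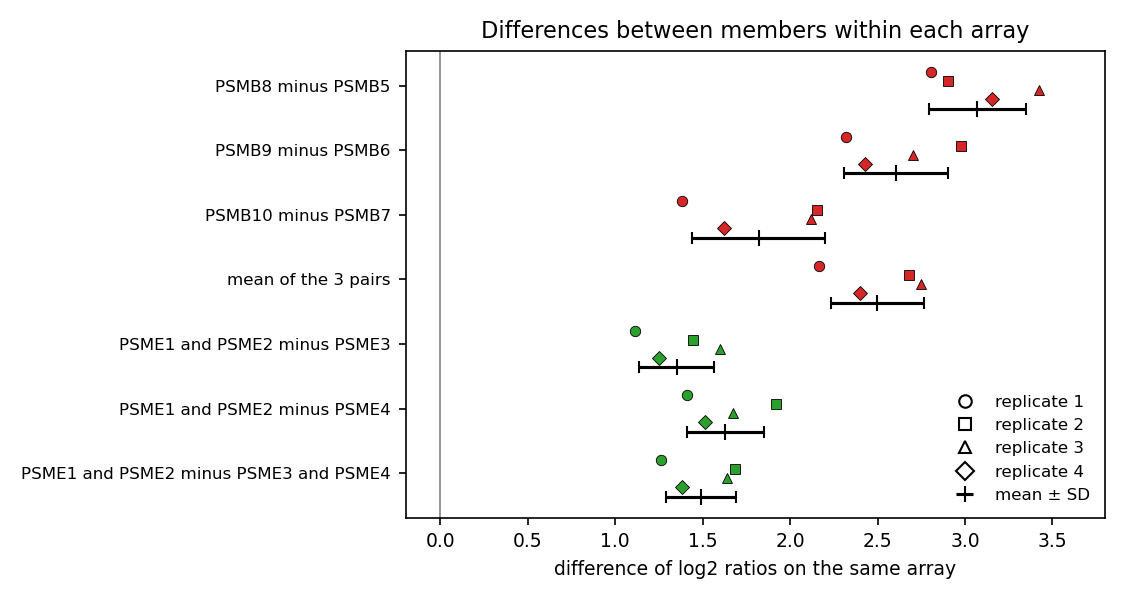
Differences of log2 ratios between members on the same array (points, 4 arrays) with the mean ± SD; red points compare inducible with constitutive catalytic subunits, green points compare PSME1 and PSME2 with the other activators. All 28 points lie above 0, the lowest at 1.11.

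PSME1 encodes PA28 alpha. Its processed signal was 5794, 5411, 6703 and 5408 in the control channel and 9252, 10848, 13432 and 9308 in the HMB channel, without overlap. Log2 ratios were 0.68, 1.00, 1.00 and 0.78, with a mean of 0.87 ± 0.16 (SD, n = 4) and an FC of 1.82 (limma adjusted p = 0.00042). A second probe, which the file describes as PA28 alpha but names only by a transcript identifier, was not a member and gave 0.81 ± 0.16 (SD, n = 4; limma adjusted p of 5e-04). PSME1 was called higher in the deposited scaling, but with spike-in centring its log2 ratio was 0.33 and it was not called.

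PSME2 encodes PA28 beta, the partner of PSME1 in the same ring. Its processed signal was 11163, 10496, 13431 and 10416 in the control channel and 22689, 29227, 32173 and 23279 in the HMB channel, without overlap. PSME2 had log2 ratios of 1.02, 1.48, 1.26 and 1.16, with a mean of 1.23 ± 0.19 (SD, n = 4) and an FC of 2.35 (limma adjusted p = 0.000147). All 5 overlapping probes were called, with means of 1.21 to 1.23. The log2 ratio of PSME2 exceeded that of PSME1 on 4 of 4 arrays, by 0.36 ± 0.09 (SD, n = 4).

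PSME3 encodes PA28 gamma, the nuclear activator. Its log2 ratio was −0.26, −0.20, −0.47 and −0.28, lowest in replicate 3, with a mean of −0.30 ± 0.12 (SD, n = 4) and an FC of 1.23 (limma adjusted p = 0.0136). Its 2 probes, which abut on chromosome 11, gave means of −0.30 and −0.27, and neither was called. With spike-in centring the log2 ratio was −0.85 and PSME3 was called lower.

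PSME4 encodes PA200. Its processed signal was 2439, 2142, 2882 and 2406 in the control channel and 1652, 1337, 1979.7 and 1651 in the HMB channel, without overlap. The log2 ratio was −0.56, −0.68, −0.54 and −0.54, with a mean of −0.58 ± 0.07 (SD, n = 4) and an FC of 1.497 (limma adjusted p = 0.000703). In the deposited scaling PSME4 was the only member called lower, and with spike-in centring it was 1 of 5. With limma's treat, which tests against the FC threshold itself, its adjusted p was 0.0628 and it was not called.

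The mean log2 ratio of PSME1 and PSME2 exceeded that of PSME3 by 1.35 ± 0.21 and that of PSME4 by 1.63 ± 0.22 (SD, n = 4 each). Compared with the mean of both, the difference was 1.26, 1.68, 1.64 and 1.38, or 1.49 ± 0.20 (SD, n = 4). Each of these differences was above 0 on 4 of 4 arrays, with p = 0.125 in the exact sign-flip test before and after correction.

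By mean log2 ratio the members fell in the order PSMB8, PSMB9, PSMB10, PSME2, PSME1, PSMB7, PSMB5, PSME3, PSMB6 and PSME4. Of the 9 pairs of neighbours, 6 kept this order on all 4 arrays. PSMB8 exceeded PSMB9 on only 3 of 4 arrays (difference of 0.55 ± 0.38), PSMB5 exceeded PSME3 on 3 (0.07 ± 0.11), and PSME3 exceeded PSMB6 on 2 (0.02 ± 0.10). The exact sign-flip test cannot decide this order. The pairs were taken from the means of the same 4 arrays, and 4 arrays allow no two-sided p below 0.125. Its smallest adjusted p, corrected over the 9 pairs, was 0.1875. With normexp and loess PSMB9 (2.16) stood above PSMB8 (1.60) and PSMB5 (−0.18) above PSMB7 (−0.22), and both pairs also turned without background correction. PSMB6 stood above PSME3 with median centring, with spike-in centring and without replicate 2. The gap between PSME1 and PSMB7 (1.05 ± 0.22, SD, n = 4) divided the members into the 5 that were called higher and the 5 others.

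In the deposited scaling, few genes of the rest of the core particle and of its 19S regulator were called. With spike-in centring 8 of the 11 other 20S subunits and 19 of the 19 tested 19S subunits were called lower. On that scale 81.8% of all tested probes were called, only 4.94% of them higher, so these counts follow a shift of most probes. Of the 11 other 20S subunits, 1 was called higher and 1 lower, and their median log2 ratio was 0.10, which turned to −0.40 with spike-in centring. PSMA2 was the highest, at 0.48 ± 0.13 (adjusted p 0.00289, limma, n = 4), and with spike-in centring it was −0.03. PSMA4 was the lowest, at −0.50 ± 0.29 (adjusted p 0.0129, limma, n = 4), and was not called with the methods' t-test, with treat, with median centring or without the filter on dim probes.

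The 19S particle unfolds ubiquitinated proteins and feeds them to the core. Of the 19 tested genes listed as 19S subunits, 0 were called higher and 2 were called lower by limma. At an unadjusted limma p under 0.05, 0 were higher and 14 lower, and the methods' t-test also called 0 higher and 2 lower. How many of all tested probes pass the unadjusted p is not given here. The log2 ratios of 18 of the 19 were below 0, with a median of −0.20, or −0.78 with spike-in centring. PSMD1 was the lowest, at −0.57 ± 0.12 (limma adjusted p 0.00131, n = 4), and PSMD12 was at −0.47 ± 0.14 (limma adjusted p 0.00336, n = 4). PSMD10 was the highest, at 0.02 ± 0.15 (n = 4), and lay below 0 without replicate 1, without replicate 4 and with spike-in centring. PSMD12 was not called with normexp or without background correction, and with treat neither gene was called.

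Among 5 tested assembly factors and inhibitors, 1 was called higher and 1 lower, and the median was 0.06. PSMF1, which encodes the proteasome inhibitor PI31, was at 0.80 ± 0.27 (limma adjusted p 0.00191, n = 4), and with spike-in centring it was at 0.19 and not called. PSMG1, a chaperone of the alpha ring, was at −0.44 ± 0.26 (limma adjusted p 0.0172, n = 4), and its call was lost under 7 of 19 alternatives: without replicate 3 (−0.33), without replicate 4 (−0.40), with the methods' t-test, with treat, without background correction, with median centring and without the filter on dim probes. POMP, the chaperone of the beta ring, was at 0.06 ± 0.12 (limma adjusted p 0.493, n = 4) and lay below 0 with normexp and with spike-in centring.

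**Figure D4:**
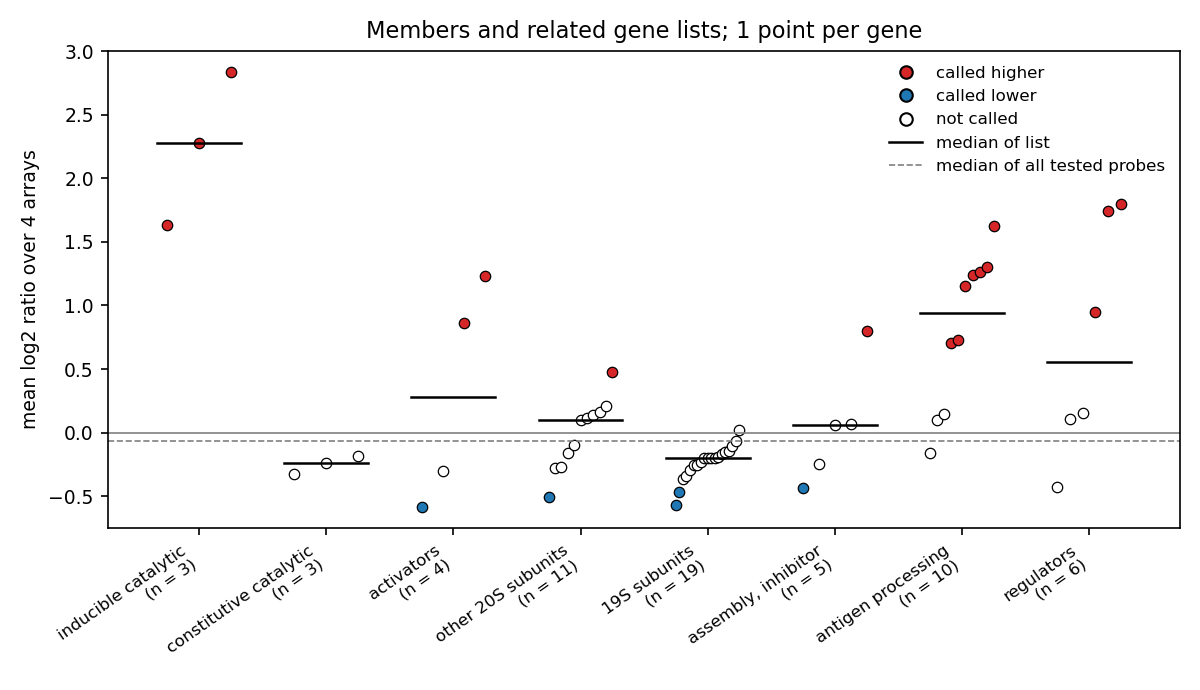
Mean log2 ratio over 4 arrays of each tested gene, grouped by role, with the median of each group (bar) and of all tested probes (dashed line, −0.07). Called genes are filled. The inducible subunits (median 2.28), antigen processing genes (median 0.94) and regulators (median 0.55) lie above the constitutive, other 20S and 19S subunits, whose medians are between −0.24 and 0.10; with spike-in centring the medians of the other 20S subunits and of the regulators turn to −0.40 and −0.077.

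The antigen processing list holds genes that act after the proteasome, and 7 of its 10 genes were called higher and 0 lower by limma. At an unadjusted p under 0.05 the count lower was also 0, as it was with the methods' t-test. Their median log2 ratio was 0.94 (0.49 with spike-in centring). TAP1 and TAP2, which form the peptide transporter of the endoplasmic reticulum, were at 1.63 ± 0.21 and 1.301 ± 0.23 (limma adjusted p 5.8e-05 and 0.000174, n = 4). ERAP1 and ERAP2, the peptidases that trim peptides there, were at 1.24 ± 0.38 and 1.16 ± 0.33 (limma adjusted p 0.001 and 0.00083, n = 4). The peptide editor TAPBPL was at 1.27 ± 0.20, tapasin (TAPBP) at 0.71 ± 0.25, and the MHC class I light chain B2M at 0.72 ± 0.31. TAPBP was not called with treat or with spike-in centring, and B2M was not called with treat or the methods' t-test. With spike-in centring 6 genes of the list were called higher and 2 lower. The general chaperones of the endoplasmic reticulum were not called in the deposited scaling, with CALR at 0.10 ± 0.13, PDIA3 at 0.15 ± 0.56 and CANX at −0.16 ± 0.12, and with spike-in centring CALR (−0.42) and CANX (−0.66) were called lower while PDIA3 was at −0.36 and not called.

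Of 6 tested transcription factors known to act on these genes or on proteasome genes, 3 were called higher and 0 lower by limma, with a median of 0.55, which turned to −0.077 with spike-in centring. At an unadjusted p under 0.05, 1 was lower, and the methods' t-test called 0 lower. With spike-in centring 2 were called higher and 3 lower. IRF1, which induces immunoproteasome genes after interferon, was at 1.63, 1.77, 1.88 and 1.69, a mean of 1.74 ± 0.11 (limma adjusted p 1.23e-05, n = 4). NFKB1, a subunit of NF-κB, was at 0.95 ± 0.16 (limma adjusted p 0.000293, n = 4; not called with spike-in centring). IRF2 was not well above background in the control channel on any array, so it was tested only through the HMB channel, where it was brighter, and its call is no independent support. When only probes with both channels well above background were tested, IRF2 dropped out. Of the 5 regulators left in that separate fit, 2 were called higher and 1 lower, and the median was 0.16. The gene called lower there was NFE2L1 (limma adjusted p 0.0426), which was not called over the 24669 probes. On the deposited signals, IRF2 was at least 2.63-fold higher in the HMB-treated group. This bound sets the mean HMB signal against, on each array, the higher of the probe's own control signal and the lowest control signal that was well above background, and it is open to dye bias.

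The factors that raise constitutive proteasome genes when proteasome activity is lacking or under oxidative stress did not pass the thresholds. NFE2L1 was at −0.85, −0.44, 0.10 and −0.53, a mean of −0.43 ± 0.39 (limma adjusted p 0.0518, n = 4), and was called lower under 7 of 19 alternatives, among them the fit without replicate 3 (−0.61). NFE2L2 was at 0.11 ± 0.04 (limma adjusted p 0.184, n = 4) and RELA, another subunit of NF-κB, at 0.16 ± 0.35 (limma adjusted p 0.369, n = 4), and both turned below 0 with spike-in centring.

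Markers of cell types moved between the groups as well. Of 8 tested muscle markers, 6 were called lower (MYF5, DES, MYH3, ACTA1, CKM and NCAM1) and 0 higher by limma (1 higher at an unadjusted p under 0.05, 0 by the methods' t-test), with a median of −1.12, while MYOD1 (0.32 ± 0.25) and MYOG (0.03 ± 0.22) were not called. MYOD1 was called higher without replicate 4 (0.45), and MYOG was called lower with spike-in centring (−0.60). The other tested MYOD1 probe was at −0.11 and was not called. The summed signal of the muscle markers was 169660 to 191450 in the control channel and 64754 to 102980 in the HMB channel. Of 6 tested fibroblast markers, 4 were called higher (PDGFRA, DCN, THY1 and LUM) and 0 lower by limma (0 at an unadjusted p under 0.05 and 0 by the methods' t-test), with a summed signal of 413320 to 503650 in the control channel and 405630 to 633660 in the HMB channel. The 2 collagens tested, COL1A2 (−0.23 ± 0.34) and COL3A1 (0.06 ± 0.29), were not called, although 3 of the 7 COL3A1 probes were called higher. Both were the brightest of the fibroblast markers (mean log2 signal 17.82 and 17.19) and weigh most in that sum. THY1 was not called with spike-in centring, and LUM lost its call under spike-in centring, under normexp and under treat. In RNA from whole cultures, fewer cells of a type and less RNA per cell cannot be told apart.

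Leukocytes express the immunoproteasome without stimulation, so their markers are given beside the inducible subunits. Of 10 leukocyte markers with a probe, 3 were tested: CD68 was called higher (0.88 ± 0.20, lost with spike-in centring), FCER1G was called lower (−0.50 ± 0.12, lost with treat and with other background corrections), and CD14 was at 0.20 ± 0.19. Their summed signal was 3703 to 4451 in the control channel and 4158 to 6215 in the HMB channel. This sum is mostly that of CD14, whose mean log2 signal was 12.06, against 6.60 for CD68 and 5.47 for FCER1G. CD3E, CD79A, ITGAM and AIF1 were well above background on 0 arrays, and CSF1R, ITGB2 and LCP1 on at most 1. None of the 6 endothelial markers with a probe was tested. Which part, if any, a shift of cell types had in the ratios of PSMB8, PSMB9 and PSMB10 was not tested.

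The brightest probes of PSMB8 and PSMB9 lie 15191 bases apart on chromosome 20, with the TAP1 probe between them and the TAP2 probe on the other side of PSMB8. TAP1 and TAP2 were the only other named genes tested within 100 kb of PSMB8, and both were called higher. Around PSMB8, the tested probes without a gene symbol were at −0.17 to 0.30, and none was called. The brightest probes of PSME1 and PSME2 lie 3421 bases apart on unplaced sequence. Of the 14 other named genes tested within 100 kb of PSME1, 1 was called higher and 0 lower by limma, and their median log2 ratio was −0.03. At an unadjusted p under 0.05, 5 were higher and 4 lower, and the methods' t-test called 1 higher and 0 lower. The gene called was IRF9, a factor of interferon signalling, at 1.78 ± 0.19 (limma adjusted p 3.07e-05, n = 4), and 1 probe without a gene symbol beside it, at 1.61, was also called higher. EMC9, whose probe lies between those of PSME1 and PSME2, was at −0.13 ± 0.06 (limma adjusted p 0.133, n = 4).

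Around PSMB10 on chromosome 3, 6 other named genes were tested, with 0 called higher by limma and 1 lower, and their median was −0.03. At an unadjusted p under 0.05, 2 were higher and 2 lower, and the methods' t-test called 0 higher and 1 lower. The gene called lower was PSKH1, which was not well above background in the HMB channel on any array and was tested only through the control channel, where it was brighter, so its call is no independent support. On the deposited signals it was at least 1.63-fold lower. This bound did not hold under other background corrections. With normexp the log2 ratio of PSKH1 was −0.18, without background correction it was −0.23, and it was called in neither. LCAT, on the other side of PSMB10, was at 0.31 ± 0.16 (limma adjusted p 0.0204, n = 4) and did not reach the FC threshold.

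**Figure D5:**
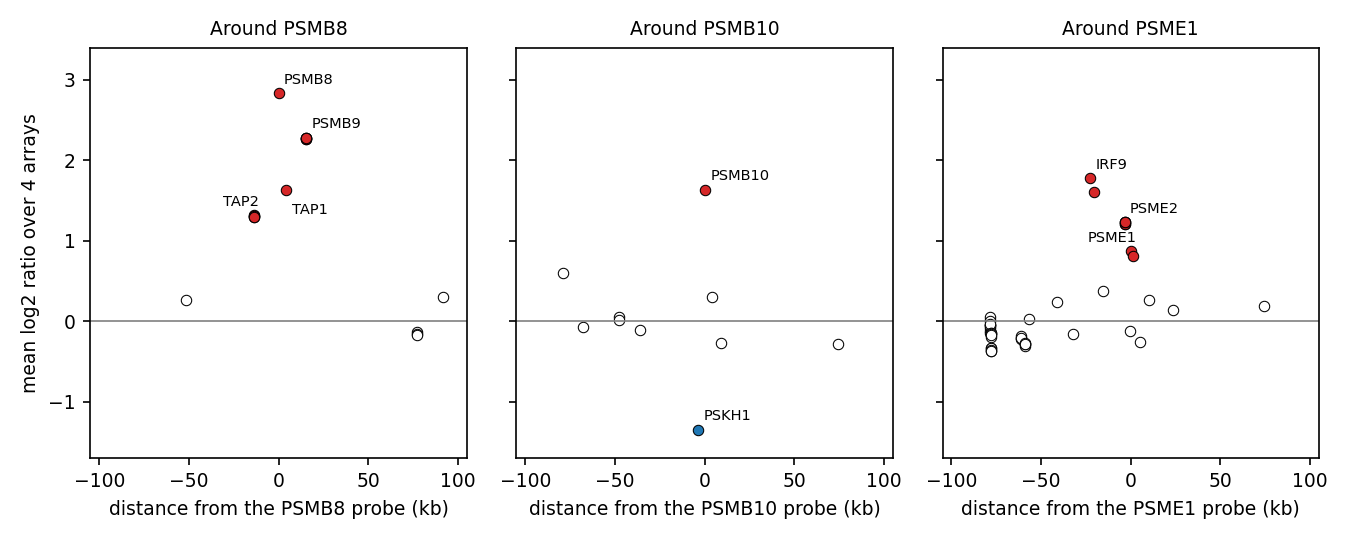
Mean log2 ratio over 4 arrays of tested probes against their distance in kb from the PSMB8, PSMB10 and PSME1 probes; red points were called higher, blue points lower and open points were not called. The called probes around PSMB8 belong to PSMB8, PSMB9, TAP1 and TAP2, whereas PSMB10 stands at 1.64 among probes of which none other was called higher.

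The genes whose 4 log2 ratios lay closest to the mean profile of the inducible subunits (1.98, 2.41, 2.42 and 2.18) were sought among 8382 symbols outside the lists. By Euclidean distance over the 4 arrays, those closest included CD40 (distance 0.22), ALDH1A3 (0.26), IFI6 (0.30) and NMI (0.32). CD40, a receptor of the TNF family, was at 2.15, 2.52, 2.33 and 2.18. The retinaldehyde dehydrogenase ALDH1A3 was at 2.12, 2.38, 2.64 and 2.17, and the interferon-induced gene IFI6 at 1.73, 2.46, 2.33 and 2.06. The likeness is one of size over 4 arrays and is a description without a test.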

How the data were processed

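The authors used 2-color Agilent horse arrays. The file headers name Feature Extraction 10.10.1.1, which is not the version that the authors' methods give. For the intensity values, the deposited scanner files hold each spot's signal after the authors' background subtraction and linear and lowess dye normalization. The deposited log10 values are the ratios of these signals, Cy5 over Cy3. The same ratios stand in the authors' normalized table (largest difference 0, median of each array 0). Here they were converted from the deposited log10 scale to log2.

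Control spots and 13 to 35 marked spots per array were left out, and the number of saturated spots was 0. Probes were tested where the same channel was well above background on each of the 4 arrays and 3 or more ratios were left. Ratios were tested against 0 with limma 3.58.1 in R 4.3.3 (intercept, empirical Bayes, Benjamini-Hochberg correction over 24669 probes; input with version 1.17.8 of data.table). A gene was represented by its brightest tested probe. Differences within arrays were tested with the exact sign-flip test. The script was tested on simulated data. The alternatives were the methods' t-test, treat, a trended robust prior, array weights, normexp (offset 50) or no background correction with loess, median, spike-in or scale centring, a probe GC correction, the authors' table, other filters on dim or marked spots, the mean over probes, and leaving out each replicate.

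Named were all members, called genes of the assembly, antigen processing and regulator lists, called and extreme genes of the 20S and 19S lists, and symbols among the 5 closest to the inducible subunits. Some genes that meet this rule are not reported here, nor counted in the lists. POMP, uncalled genes of the short lists, markers and neighbours were named outside this rule, with their values known. The members and the lists were chosen with earlier results of these data known. A RefSeq list of horse genes was used for names only (231 probes by synonym and 798 by accession).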

Additional observations from a re-analysis of the deposited data

Results flagged for a closer look

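PSME4 was the single result in which Dixon's ratio marked a sample as apart, although its SD (0.066) was the smallest of all members. Its log2 ratio was −0.68 in replicate 2 and −0.56, −0.54 and −0.54 on the other arrays, and the gap to the nearest value took 0.85 of the whole range, above Dixon's critical value for 4 samples. Among 33 values examined in this way, chance alone would mark about 5%. Without any 1 of the replicates, PSME4 stayed between −0.60 and −0.55 and was called lower.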

How the results depend on the processing

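PSMB8, PSMB9, PSMB10 and PSME2 were called higher under all 19 alternatives, and no member changed its direction. The members called lower were 0 with treat, 2 with normexp and 5 with spike-in centring. The called probes were 7046 in the deposited scaling, and 2822 with treat, 3538 with normexp, 4439 without background correction and 20165 with spike-in centring. Of the called probes 42.5% were higher, against 54.6% with treat, 55.0% with normexp, 60.1% without background correction and 4.94% with spike-in centring. The deposited ratios of the spike-in RNA were 0.37 to 0.57 above 0. The mean difference of the 3 catalytic pairs was 2.05 with normexp and 2.42 to 2.61 when 1 replicate was left out. Called genes among the other 20S subunits were 2, and 1 with the t-test, 0 with treat, 8 with spike-in centring and 1 without the filter. Called 19S subunits were 2, and 0 with treat, 1 with normexp, 1 without background correction and 19 with spike-in centring. Without replicate 1, 2 or 4, 3 of them were called lower. Called assembly factors were 2, and 1 with the t-test, treat, no background correction, median centring or no filter, 4 with spike-in centring, and 1 to 2 when 1 replicate was left out. Called regulators were 3 higher and 0 lower. A trended robust prior, array weights, median centring, the mean over probes and leaving out replicate 3 each added 1 called lower. With both channels well above background 5 were tested, of which 2 were called higher and 1 lower. With spike-in centring 5 were called. Turned below 0 with spike-in centring were PSMA2 (−0.034), PSMD10 (−0.57), POMP (−0.43), CALR (−0.42), PDIA3 (−0.36), RELA (−0.52), NFE2L2 (−0.49), MYOD1 (−0.40), MYOG (−0.60) and LUM (−0.079). POMP was −0.0033 with normexp and CANX 0.0059 with median centring. When 1 replicate was left out, PSMD10 ranged from −0.044 to 0.068 (below 0 without replicate 1 or 4), PDIA3 from −0.084 to 0.34 (below 0 without replicate 1) and MYOG from −0.033 to 0.12 (below 0 without replicate 2 or 3). The cause of these changes was not tested. The ratio of each array is itself a paired comparison of both groups, so no further block was fitted. The brightness of a probe limits the ratio of PSMB8, IRF2 and PSKH1.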
